A study of Mus musculus with 8 samples.

Results

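The 9 genes described here encode proteins that neutrophils store in their secondary and tertiary granules: Ltf, Camp, Ngp, Lcn2, Chi3l3, Chi3l4, Mmp8, Mmp9 and Cd177. They were chosen by symbol from a table of 23293 mouse genes, each has 1 row in it, and all 9 were among the 10854 genes tested. RNA sequencing was done on bone marrow cells of individual mice, selected for c-Kit (Cd117) on magnetic beads and taken 4 weeks after PIpC, which induces the Mx1-cre recombinase in blood-forming and some other cells. The 8 libraries formed 4 groups of 2. Combined mice carried Flt3-ITD and a deleted Smc3 allele together with Mx1-cre, with Smc3 written as fl/del in the genotype field and as het in the sample title. Flt3-ITD mice carried that allele and Mx1-cre. Smc3 del/+ mice carried 1 deleted Smc3 allele and Mx1-cre. Controls were Smc3 fl/+ without Mx1-cre, so every comparison with control also sets carriers of the recombinase against mice without it. Flt3-ITD is a tandem duplication inside the gene of the Flt3 receptor kinase that leaves the kinase active without its ligand. Smc3 is part of the cohesin ring, which forms chromosome loops and holds sister chromatids together. The series set these alleles side by side, alone and together, in blood-forming cells.

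Neutrophils build their granules in sequence as they mature. Primary granules with Mpo and elastase are made in promyelocytes, secondary granules with lactoferrin in myelocytes and metamyelocytes, and tertiary (gelatinase) granules with Mmp9 later still. Transcription of secondary granule genes in the mouse needs the factor C/EBP epsilon, encoded by Cebpe, and these genes are used as signs of how far granulocyte maturation has gone.

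The selected cells had the transcript used for the selection, Kit, at 37.4 to 60.1 FPKM (fragments scaled by transcript length and by mapped fragments) in all 8 libraries. Smc3, the targeted gene, was at 103 and 136 FPKM in combined libraries, 94.7 and 89.9 in Flt3-ITD, 135 and 133 in libraries labelled Smc3 del/+, and 119 and 112 in controls. Both combined libraries were above both Flt3-ITD libraries and both libraries labelled Smc3 del/+ above both controls, so the level goes against the labelled deletion, and every direction below refers to libraries as labelled. FPKM of a whole gene cannot show whether transcripts came from a deleted allele. Flt3 was at 14.3 and 7.92 FPKM in combined libraries, 3.64 and 5.36 in Flt3-ITD, 4.95 and 4.74 in Smc3 del/+, and 5.81 and 5.21 in controls. Xist, made from the inactive X chromosome of female cells, was at 499.8 to 657 FPKM in combined and control libraries and at 0.140 to 0.936 in Flt3-ITD and Smc3 del/+ libraries. Sex and genotype therefore cannot be told apart in Flt3-ITD or Smc3 del/+ against control or in the combined group against Flt3-ITD or Smc3 del/+. Read depth is unknown, since the tables hold no counts. Combined replicate 2 listed 11076 genes at 0, against 8878 to 9907 in the other libraries, and the combined replicates had the lowest correlation (r = 0.932, against 0.975 to 0.981 in the other groups, across genes that are not independent).

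The promoter sequences are shown because the C/EBP motif is the one tied to this class of genes. RefSeq windows of GRCm38.p6, running from upstream of the annotated start to shortly after it, were at hand for 8 of the 9 genes. The C/EBP motif TTGCNNAA, searched on both strands, was found in 5 of the 8 windows (Ltf, Ngp, Lcn2, Chi3l4 and Mmp8), and 10.8% of all 32851 such windows hold it. The matches are in capitals in the windows of Ltf (chr9:111019042-111019341, plus strand), Ngp (chr9:110419558-110419857, plus strand) and Mmp8 (chr9:7558179-7558478, plus strand), which are printed 5′ to 3′ along the gene.
Ltf: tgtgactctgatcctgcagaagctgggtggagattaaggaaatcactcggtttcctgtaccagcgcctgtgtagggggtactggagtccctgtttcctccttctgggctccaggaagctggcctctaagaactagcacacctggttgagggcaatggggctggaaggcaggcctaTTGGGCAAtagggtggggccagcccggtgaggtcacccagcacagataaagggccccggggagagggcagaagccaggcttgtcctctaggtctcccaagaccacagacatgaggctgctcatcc
Ngp: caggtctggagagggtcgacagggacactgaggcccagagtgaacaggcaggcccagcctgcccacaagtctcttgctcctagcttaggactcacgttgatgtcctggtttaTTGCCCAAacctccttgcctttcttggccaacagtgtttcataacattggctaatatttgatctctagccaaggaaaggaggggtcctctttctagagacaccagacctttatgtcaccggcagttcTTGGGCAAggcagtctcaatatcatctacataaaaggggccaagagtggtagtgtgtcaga
Mmp8: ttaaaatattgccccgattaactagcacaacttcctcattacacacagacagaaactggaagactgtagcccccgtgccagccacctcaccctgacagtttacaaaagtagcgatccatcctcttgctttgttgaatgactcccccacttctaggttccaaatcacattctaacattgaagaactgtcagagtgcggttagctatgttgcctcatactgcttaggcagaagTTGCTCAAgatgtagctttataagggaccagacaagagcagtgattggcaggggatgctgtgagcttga
Ngp held 2 matches, and the match of Ltf starts 75 bases before the annotated start of transcription. A match of letters is a description, not a bound site. The motifs that follow were also searched on both strands. The PU.1 motif GAGGAAGT was found in the Mmp8 window alone among the 8, against 3.20% of all windows. It lies on the strand not printed and reads ACTTCCTC above. TATAAA was found in 4 (Chi3l3, Chi3l4, Mmp8 and Cd177), against 13.6% of all windows. In Mmp8 it too lies on the strand not printed and reads TTTATA above. The run ATAAAAAG, picked after the sequences were seen and overlapping TATAAA in 3 of them, was found in 4 windows (Lcn2, Chi3l3, Chi3l4 and Cd177), against 1.80% of all windows.

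Chi3l3 and Chi3l4 (Chil3 and Chil4 in RefSeq) are neighbours on chromosome 3 and close copies. Their windows, Chi3l3 at chr3:106167515-106167814 and Chi3l4 at chr3:106219430-106219729, both on the minus strand of GRCm38.p6, align over 271 bases, of which 251 (92.6%) are identical. Capitals mark the aligned bases that differ, including those with no partner.
Chi3l3: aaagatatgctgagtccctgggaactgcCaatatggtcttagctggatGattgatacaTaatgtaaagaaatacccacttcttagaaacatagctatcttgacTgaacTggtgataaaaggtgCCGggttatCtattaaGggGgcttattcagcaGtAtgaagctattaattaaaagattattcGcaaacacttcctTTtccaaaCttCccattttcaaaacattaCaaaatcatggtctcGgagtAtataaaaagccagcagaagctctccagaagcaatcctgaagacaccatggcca
Chi3l4: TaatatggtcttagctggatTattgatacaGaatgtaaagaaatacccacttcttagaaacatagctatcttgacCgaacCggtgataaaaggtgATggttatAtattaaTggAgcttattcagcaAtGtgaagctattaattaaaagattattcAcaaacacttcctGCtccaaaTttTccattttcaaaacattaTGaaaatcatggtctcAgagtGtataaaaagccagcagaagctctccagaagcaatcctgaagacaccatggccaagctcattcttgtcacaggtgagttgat
Their longest protein-coding transcripts in GENCODE were identical at 94.7% of 1535 aligned bases, and 18.5% of the 50-base windows of one occur in the other. The assignment of reads between the pair is therefore uncertain. The ratio of Chi3l3 to Chi3l4 FPKM was 7.52 and 9.75 in combined libraries, 8.16 and 7.70 in Flt3-ITD, 8.07 and 7.96 in Smc3 del/+, and 8.02 and 8.29 in controls.

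Together the 9 genes made up 10.8% and 8.50% of all mouse FPKM in combined libraries, 11.9% and 9.72% in Flt3-ITD, 7.43% and 6.96% in Smc3 del/+, and 4.68% and 5.21% in controls. The order of the groups was the same without short RNA genes, which take up part of the total in controls and in Smc3 del/+ replicate 2 (5.69% and 5.83% in controls then). Ngp was the most abundant member, ranking between 3 and 5 among all mouse genes in every library, and Mmp9 the least, at ranks 190 to 2662. Mmp9 varied the most, by 9.07-fold between its highest and lowest library, and Mmp8 by 8.31-fold, while the other 7 spanned 2.75-fold to 3.24-fold.

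**Figure D1:**
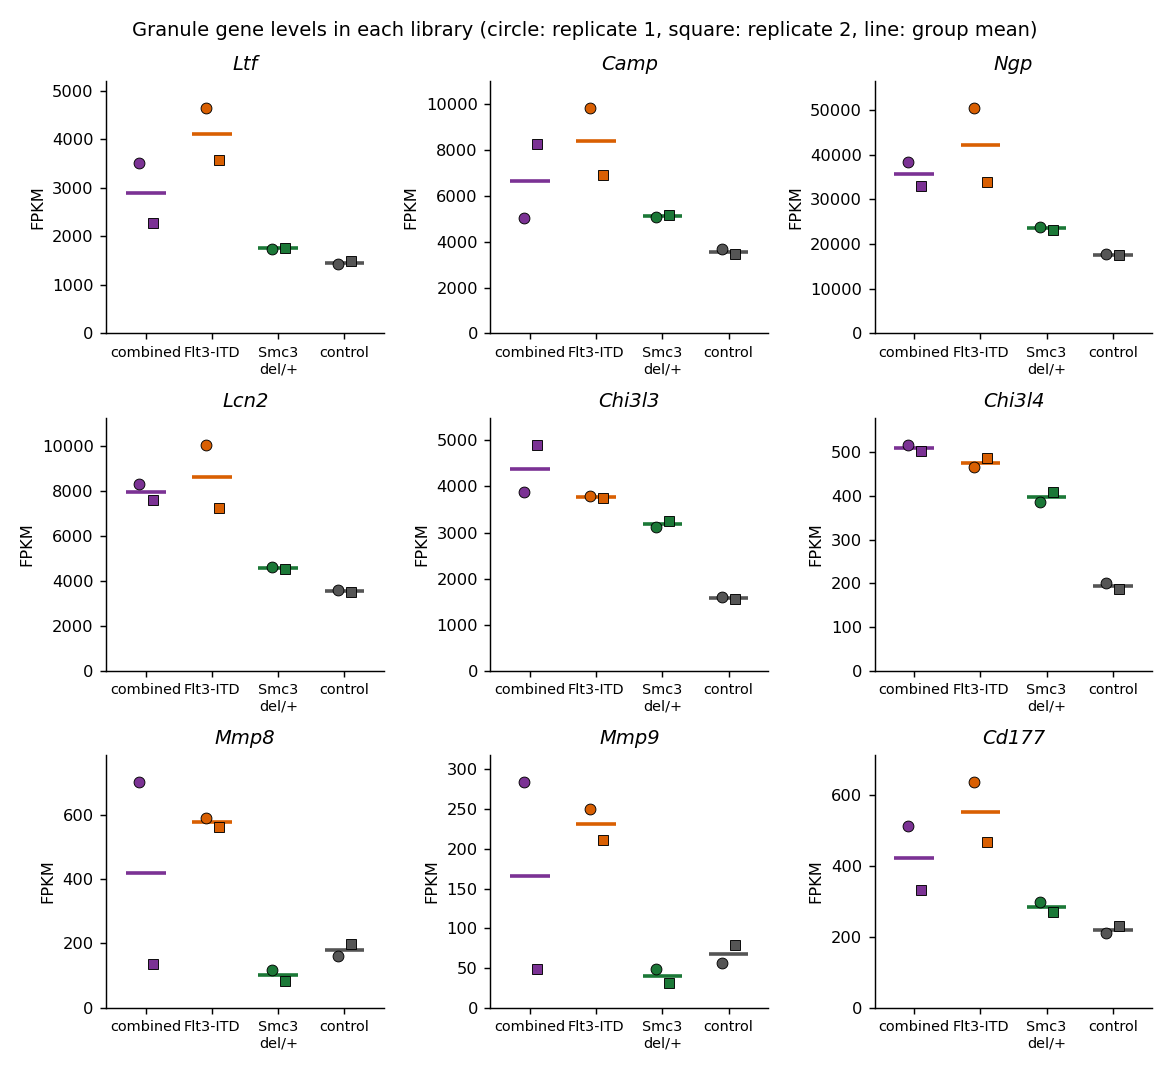
FPKM of each of the 9 granule genes (vertical axis, from 0) in the 8 libraries, by group (horizontal axis), with circles for replicate 1, squares for replicate 2 and a line at the group mean. Both Flt3-ITD libraries lie above both controls in all 9 panels, the Chi3l3 and Chi3l4 panels also have Smc3 del/+ well above control, and combined replicate 2 is low for Mmp8 (137 FPKM) and Mmp9 (48.2 FPKM).

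Granule genes were higher with Flt3-ITD than in control, a comparison of the Flt3 mutation without the Smc3 deletion. These groups also differ in Mx1-cre and in sex, which cannot be told apart from the mutation. Fold changes here and below are on the log2(FPKM + 1) scale, and a gene counts as changed where its adjusted p in limma, over all tested genes, is under 0.05. Of the 9 members 6 rose (Ltf, Camp, Lcn2, Chi3l3, Chi3l4 and Cd177), none fell, and 3 did not pass (Ngp, Mmp8 and Mmp9). Of all tested genes, 18.0% were called, 8.51% as higher and 9.50% as lower. Both Flt3-ITD libraries were above both controls for all 9 members, which holds for 34.3% of all tested genes. The median log2 fold change of the members was 1.29, against -0.0068 over all tested genes.

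The iron-handling proteins come first. Ltf, lactoferrin, which withholds iron from microbes, was at 4644 and 3582 FPKM in Flt3-ITD, against 1432 and 1492 in controls. Both Flt3-ITD libraries stood far above the controls, and the groups did not overlap. The means were 4113 ± 751 and 1462 ± 42.1 FPKM (SD, n = 2 each), a log2 fold change of 1.48 ± 0.258 (SE, limma adjusted p = 0.0104). Lcn2, lipocalin-2, which binds bacterial siderophores, was at 10031 and 7232 FPKM in Flt3-ITD, against 3597 and 3489.8 in controls. The Flt3-ITD libraries were again the higher ones, replicate 1 more so, and the log2 fold change was 1.27 ± 0.261 (adjusted p = 0.0181).

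Of the antimicrobial members, Camp encodes the cathelicidin precursor and Ngp a cystatin-like granule protein related to it. Camp was at 9836 and 6925 FPKM in Flt3-ITD, against 3685 and 3457 in controls. Its groups did not overlap, and it rose by 1.21 ± 0.32 (adjusted p = 0.0388). Ngp was at 50418 and 33955 FPKM in Flt3-ITD, against 17835 and 17446 in controls. The groups did not overlap here either, but replicate 1 was well above replicate 2, and the log2 fold change of 1.23 ± 0.415 did not pass (adjusted p = 0.0795). Cd177, a glycoprotein of the granule and cell membrane, was at 635 and 465 FPKM in Flt3-ITD, against 209 and 229.97 in controls. It rose by 1.31 ± 0.235 (adjusted p = 0.0116), with no overlap.

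The chitinase-like proteins Chi3l3 (Ym1) and Chi3l4 (Ym2), which bind sugars without cleaving chitin, had the smallest standard errors of the 9. Chi3l3 was at 3797 and 3741 FPKM in Flt3-ITD, against 1606 and 1555 in controls. Chi3l4 was at 465 and 486 FPKM in Flt3-ITD, against 200.4 and 188 in controls. In both, the gap between groups was many times the gap between replicates. Chi3l3 rose by 1.25 ± 0.209 (adjusted p = 0.00879) and Chi3l4 by 1.29 ± 0.126 (adjusted p = 0.00168).

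The metalloproteinases had the largest fold changes and the largest errors. Mmp8, neutrophil collagenase, was at 592 and 563 FPKM in Flt3-ITD, against 162 and 198 in controls. Mmp9, gelatinase B, the defining protein of tertiary granules, was at 250.1 and 211 FPKM in Flt3-ITD, against 56.8 and 79.0 in controls. All 4 Flt3-ITD values stood above the control values of the same gene. The log2 fold changes were 1.69 ± 0.63 for Mmp8 (adjusted p = 0.105) and 1.76 ± 0.692 for Mmp9 (adjusted p = 0.118), neither past the threshold. The shared spread that sets these errors includes the combined pair, which differed most for these genes.

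**Figure D2:**
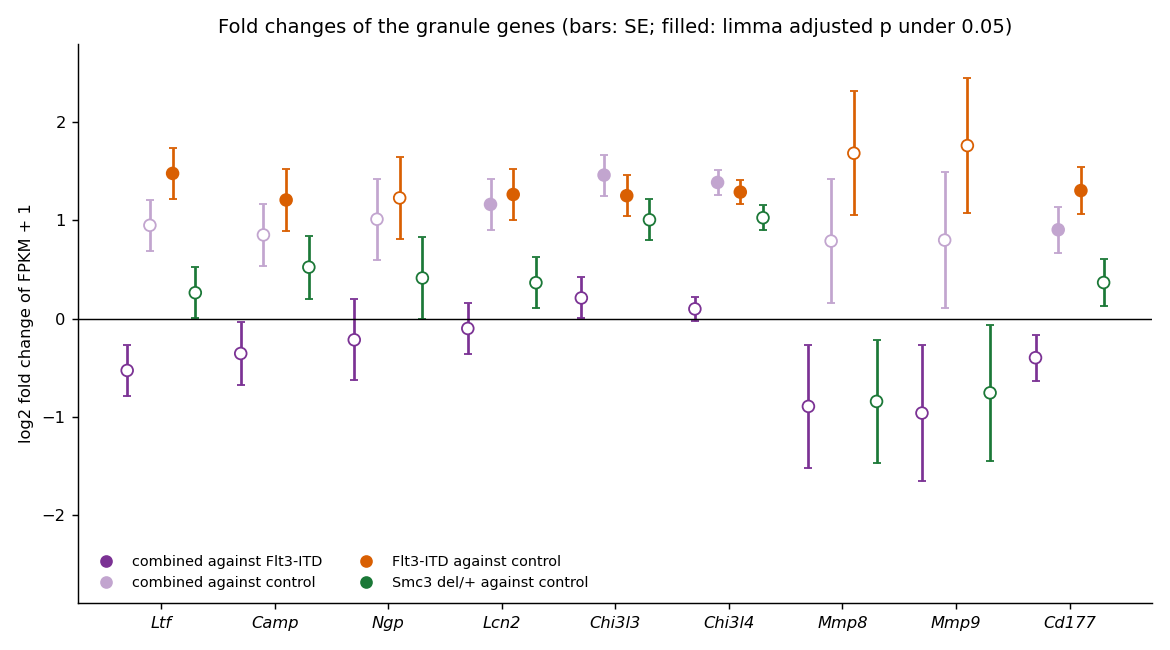
Log2 fold change of FPKM + 1 (vertical axis) of each granule gene (horizontal axis) in 4 comparisons, with bars for the SE and filled points for an adjusted p under 0.05. Flt3-ITD against control is positive for all 9, from 1.21 (Camp) to 1.76 (Mmp9), and Smc3 del/+ against control is negative for Mmp8 (-0.85) and Mmp9 (-0.76); with spike-in scaling it is also negative for Ltf, Lcn2 and Cd177.

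The number of members called in Flt3-ITD against control depended on single libraries. It was 1 without Flt3-ITD replicate 1 (beside 4.08% of all tested genes called), 5 without Flt3-ITD replicate 2 (7.47%), 1 without either control (2.24% and 2.87%) and 4 without either Smc3 del/+ library (9.18% and 9.16%). Without either combined library it was 9, beside 39.0% of all tested genes. The share called over all genes moved in the same direction as the count of members in each case. Scaling to spike-ins moved the median of all genes by -0.49 and left 3 members called, while all 9 log2 fold changes stayed positive, at 0.66 to 1.22. That scaling also turned the split of all called genes, 924 higher and 1031 lower here, to 103 higher and 3363 lower.

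Averaged over both Smc3 states, in 4 Flt3-ITD carriers against 4 others balanced for Xist, 7 of 9 members rose (Ltf, Lcn2, Chi3l3, Chi3l4, Mmp8, Mmp9 and Cd177) and none fell. All 4 carriers had Mx1-cre and the controls among the others lacked it, so Mx1-cre was not balanced. Of all tested genes, 23.8% were called, 10.9% as higher and 12.8% as lower. All 4 carriers were above all 4 other libraries for 6 members, against 12.1% of all tested genes. Mmp8 rose by 1.66 ± 0.419 (limma adjusted p = 0.0230) and Mmp9 by 1.66 ± 0.461 (adjusted p = 0.0326), the largest averaged changes of the 9, although combined replicate 2 was below both controls for each. Ltf rose by 1.08 ± 0.227 (adjusted p = 0.0120) and Lcn2 by 1.03 ± 0.21 (adjusted p = 0.0108). Camp (0.77 ± 0.274, adjusted p = 0.0742) and Ngp (0.91 ± 0.343, adjusted p = 0.0856) did not pass. Without either control library no member passed, beside 11.1% and 11.6% of all tested genes, and without Flt3-ITD replicate 1 or 2 the counts were 3 and 4, beside 14.1% of genes in each case.

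Smc3 del/+ against control compares the Smc3 deletion without the Flt3 mutation, and these groups also differ in Mx1-cre and in sex. The 2 chitinase-like genes stood apart from the rest by value there, and no member passed. Chi3l3 was at 3111 and 3247 FPKM in Smc3 del/+, against 1606 and 1555 in controls. Chi3l4 was at 385 and 408 FPKM in Smc3 del/+, against 200.4 and 188 in controls. For both genes each deletion library was far above each control and the replicates were close together. The ratio of group means was 2.01 for Chi3l3 and 2.04 for Chi3l4. Their log2 fold changes were 1.01 ± 0.209 (adjusted p = 0.608) and 1.03 ± 0.126 (adjusted p = 0.0947).

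The other members had smaller values in that comparison. Ltf was at 1740.3 and 1768 FPKM in Smc3 del/+ (log2 fold change 0.26), Lcn2 at 4618 and 4512 (0.37), Camp at 5099.9 and 5165 (0.52), Ngp at 23877 and 23114 (0.41) and Cd177 at 299 and 269 (0.37), each above both controls. With spike-in scaling, Ltf, Lcn2 and Cd177 had values just below 0 (-0.11, -0.0069 and -0.0039). Mmp8 was at 116 and 84.5 FPKM in Smc3 del/+, against 162 and 198 in controls. Mmp9 was at 49.1 and 31.3 FPKM in Smc3 del/+, against 56.8 and 79.0 in controls. The 2 metalloproteinases were thus the members with both deletion libraries below both controls, at log2 fold changes of -0.85 ± 0.63 and -0.76 ± 0.692. The other 7 had both deletion libraries above both controls. Over all tested genes, 24.2% had the deletion libraries above and 23.2% had them below. Limma called 0 members and 1 of 10854 genes (0.00921%), with unadjusted p under 0.05 for 2 members, Chi3l3 and Chi3l4, and for 494 genes (4.55%). With the 2 compared groups alone in the fit, 2 members were called beside 0.203% of genes, and without either combined library 1 was, beside 0.111%.

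In the combined group against Flt3-ITD, which bears on the deletion in cells with the Flt3 mutation, no member passed the test. Ltf was at 3515 and 2272 FPKM in combined libraries, against 4644 and 3582 in Flt3-ITD. Both combined libraries were below both Flt3-ITD libraries, with a log2 fold change of -0.53 ± 0.258 (limma adjusted p = 0.479, 95% interval -1.13 to 0.07). Chi3l3 was at 3882 and 4896 FPKM in combined libraries, against 3797 and 3741 in Flt3-ITD. Chi3l4 was at 516 and 502 FPKM in combined libraries, against 465 and 486 in Flt3-ITD. These were the 2 members with both combined libraries above, by 0.21 ± 0.209 and 0.098 ± 0.126; with spike-in scaling and in the normalized table Chi3l4 was just below 0. The other 6 overlapped. The shares of all tested genes with the combined libraries above or below both Flt3-ITD libraries were 17.1% and 16.8%. Limma called 0 members and 31 genes (0.286%), with unadjusted p under 0.05 for 0 members and 1196 genes (11.0%).

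Mmp8 and Mmp9 differed widely between the combined replicates. Mmp8 was at 702 FPKM in combined replicate 1 and 137 in replicate 2, and Mmp9 at 284 and 48.2. Replicate 1 was above both Flt3-ITD libraries and replicate 2 below both controls for each gene. The group comparison with Flt3-ITD gave -0.90 ± 0.63 for Mmp8 (95% interval -2.36 to 0.57) and -0.96 ± 0.692 for Mmp9 (-2.58 to 0.65). Without combined replicate 2 these values were 0.28 and 0.30, so the direction rested on that library. Without combined replicate 1, 4 members were called in this comparison, all lower, beside 29.9% of all tested genes in either direction (1562 higher and 1686 lower), and without replicate 2 none was, beside 1.02%. In replicate 2 Camp was the higher of the pair (8252 against 5036 FPKM in replicate 1), while Ngp (33009 and 38386), Lcn2 (7608 and 8288) and Cd177 (332 and 510.4) were lower there.

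Against control, 4 of 9 members rose in the combined group (Lcn2, Chi3l3, Chi3l4 and Cd177) and none fell, beside 11.8% of all tested genes called in either direction, 5.41% as higher and 6.38% as lower. Both groups had the female Xist pattern. The log2 fold changes were 1.46 ± 0.209 for Chi3l3 (limma adjusted p = 0.00751), 1.39 ± 0.126 for Chi3l4 (adjusted p = 0.00264), 1.16 ± 0.261 for Lcn2 (adjusted p = 0.0312) and 0.91 ± 0.235 for Cd177 (adjusted p = 0.0478). Ltf, at 0.95 ± 0.258, missed the threshold (adjusted p = 0.0550). Camp (0.85), Ngp (1.01), Mmp8 (0.79) and Mmp9 (0.80) did not pass either. Libraries did not overlap for 7 members, all higher, against 25.8% of all tested genes; Mmp8 and Mmp9 overlapped. The count of members was 1 without either control (beside 0.792% and 0.765% of all tested genes called), 2 without either Smc3 del/+ library (4.74% and 4.76%), 6 without combined replicate 1 (28.7%) and 7 without replicate 2 (31.6%). With these 2 groups alone in the fit it was 0, beside 0.378% of genes.

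Against Smc3 del/+, all 9 log2 fold changes of the combined group were positive, from 0.33 (Camp) to 1.64 (Mmp8), and limma called 0 members, beside 591 genes (5.44%). The value of Camp was -0.0060 with spike-in scaling. Unadjusted p was under 0.05 for 4 members and 2378 genes (21.9%). Both combined libraries were above both Smc3 del/+ libraries for 7 members, against 22.3% of all tested genes. The largest values were those of Mmp8 (1.64 ± 0.63, adjusted p = 0.183), Mmp9 (1.56 ± 0.692, adjusted p = 0.242) and Lcn2 (0.80 ± 0.261, adjusted p = 0.129). Without combined replicate 2, 6 members were called, beside 25.1% of all tested genes. This comparison, too, follows the sex of the mice.

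Averaged over both Flt3 states, the Smc3 deletion gave 0 called members and 0 called genes in limma, with unadjusted p under 0.05 for 2 members and 525 genes (4.84%). Mx1-cre was not balanced in this average either, since only the controls lacked it. Chi3l3 (0.61 ± 0.206) and Chi3l4 (0.56 ± 0.182) had the highest values, and Mmp8 (-0.87 ± 0.419) and Mmp9 (-0.86 ± 0.461) the lowest, each with an adjusted p of 0.901. The interaction, which asks whether the Flt3-ITD effect differs between Smc3 states, was negative for all 9 members with 0 called, beside 4 called genes (0.0369%) and 2 members and 1009 genes (9.30%) at an unadjusted p under 0.05; with spike-in scaling it was 0.16 for Mmp8 and 0.0034 for Mmp9. It follows the sex of the mice in full. Chi3l4 had the smallest p, with an interaction of -0.93 ± 0.179 (adjusted p = 0.214), the 3 groups with either allele lying between 385 and 516 FPKM and the controls at 200.4 and 188. Those 3 groups are also the ones with Mx1-cre, which cannot be told apart from the alleles in this pattern. Without combined replicate 1 the interaction called 5 members, all lower, beside 18.8% of all tested genes (986 higher and 1050 lower), and without replicate 2 it called 1, beside 0.903%.

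Not all members kept a steady ratio to each other. Mmp8 and Mmp9 together had 28.0 and 8.14 FPKM per 100 FPKM of Ltf in combined libraries, 18.1 and 21.6 in Flt3-ITD, 9.50 and 6.55 in Smc3 del/+, and 15.3 and 18.6 in controls. Both Smc3 del/+ libraries and combined replicate 2 were the low ones, and the Flt3-ITD range overlapped that of controls. Chi3l3 had 10.1 and 14.8 FPKM per 100 of Ngp in combined libraries, 7.53 and 11.0 in Flt3-ITD, 13.0 and 14.0 in Smc3 del/+, and 9.01 and 8.92 in controls. Here Smc3 del/+ lay above control with no overlap, and the combined and Flt3-ITD ranges overlapped. Camp per 100 of Ngp was steadier, at 19.5 to 22.3 in the 6 libraries outside the combined group, and was 13.1 and 25.0 in combined replicates 1 and 2. Mmp9 kept at 35.1 to 42.3 per 100 of Mmp8 in all 8. Over the same libraries Lcn2 was at 19.3 to 23.0 per 100 of Ngp, and Cd177 at 13.0 to 17.2 per 100 of Ltf. These ratios do not depend on the scaling between libraries and were not tested, since an exact permutation test of 2 against 2 cannot go below p = 0.333.

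**Figure D3:**
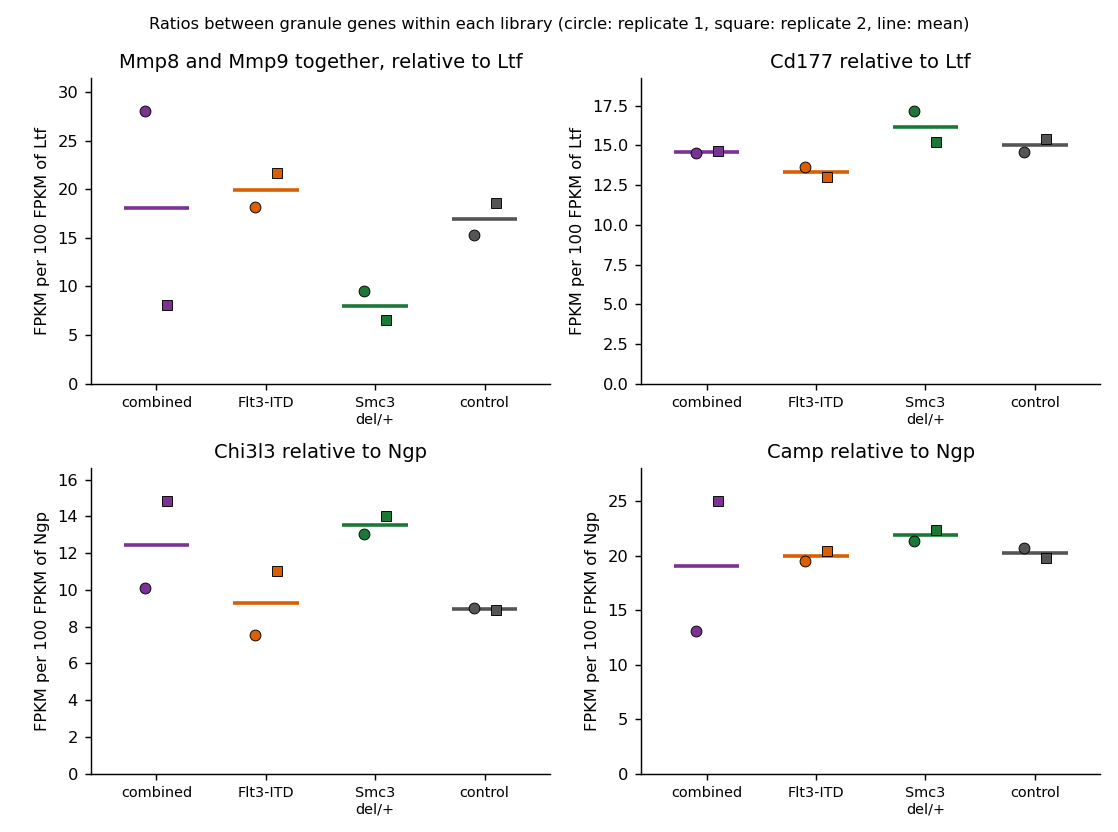
FPKM of a granule gene per 100 FPKM of another in the same library (vertical axes, from 0), by group (horizontal axis), with a circle and a square for the replicates and a line at the mean. The metalloproteinases relative to Ltf are low in Smc3 del/+ (9.50 and 6.55) and in combined replicate 2 (8.14), and Chi3l3 relative to Ngp is higher in Smc3 del/+ (13.0 and 14.0) than in control (9.01 and 8.92).

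Across the 8 libraries, which share their group structure, the closest pairs on the log2 scale were Mmp8 and Mmp9 (Pearson r above 0.99), Ngp and Lcn2 (0.99), Ltf and Cd177 (0.99) and Chi3l3 and Chi3l4 (0.98). The loosest was Chi3l3 with Mmp9 (0.27). The 10 genes whose pattern over the 8 libraries was most like the mean of the scaled members were Lbp, Cybb, Mgst2, Myo5a, Acpp, Pstpip2, Ppp3ca, Rassf5, Msra and 4930431P03Rik, with r above 0.99 for each. Cybb, a subunit of the NADPH oxidase, was at 913 and 731 FPKM in combined libraries, 1169 and 943 in Flt3-ITD, 556 and 487 in Smc3 del/+, and 398 and 420.3 in controls. Lbp was at 83.0 and 73.7 FPKM in combined libraries, 97.2 and 80.4 in Flt3-ITD, 56.4 and 55.2 in Smc3 del/+, and 43.5 and 47.0 in controls. The 5 most opposite were Mybbp1a, Sdad1, Rps2, Tfdp2 and B3galtl. These correlations describe 8 libraries in 4 groups and carry no test.

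Other genes of the same granules moved with the members in Flt3-ITD against control. Of 28 listed other genes of secondary and tertiary granules and their membranes, 25 were tested, 15 rose and none fell, with a median log2 fold change of 1.28. Orm1, an orosomucoid, had 1.55 (limma adjusted p = 0.00185), the chitinase gene Chit1 1.46 (0.00296), Cybb 1.36 (0.00445) and the adhesion gene Ceacam1 1.35 (0.00560). Of 18 tested mature neutrophil markers, 6 rose and none fell (median 1.06), among them Trem3 (139.9 and 105 FPKM in Flt3-ITD, against 64.0 and 56.6 in controls), Il1r2 (log2 fold change 1.46) and the formyl peptide receptor gene Fpr2 (1.53). Genes listed with the primary granules had a lower median, 0.52, with 5 of 16 higher and none lower. The list is broader than granule contents, since Igsf6 and Clec12a encode surface receptors. Lyz1 (1.33), Igsf6 (0.99), Clec12a (0.94) and Cd63 (0.69) were among those that rose, while Mpo (0.49, adjusted p = 0.141) and Elane (0.45, adjusted p = 0.179) did not pass.

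Among 24 tested regulators of granule gene transcription, 9 rose and 2 fell in the same comparison. Cebpe was at 77.4 and 74.2 FPKM in Flt3-ITD, against 36.0 and 37.8 in controls. Both Flt3-ITD libraries were about equal and well above the controls, and the log2 fold change was 1.02 (limma adjusted p = 0.0246). Irf8, a monocyte factor, rose by 1.35, Id1, an inhibitor of bHLH factors, by 1.54 and Ets1 by 0.92, and Gata1, the erythroid factor, fell by 3.67 on the log2 scale. Cebpa (0.55) and Gfi1 (0.55) did not pass. Of 13 tested inhibitors, receptors and partners of the granule proteins, 4 rose and 2 fell. Itgam and Itgb2, which form the integrin Mac-1, rose by 1.31 and 1.28, and Timp3, an inhibitor of metalloproteinases, and Tfrc, the transferrin receptor, fell by 1.29 and 1.47.

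Erythroid markers moved the other way beside these results, with 13 of 14 tested markers lower in Flt3-ITD than in control and none higher. Their summed level over 15 genes was 249.5 and 103 FPKM in Flt3-ITD, against 2585 and 2479 in controls. Of 12 B cell markers 11 fell, with Pax5 at 0 in both Flt3-ITD libraries, and of 9 megakaryocyte markers 8 fell. Monocyte and macrophage markers were split (5 of 14 rose and 4 fell), and their summed level was 3336 and 3598 FPKM in Flt3-ITD, against 1800.2 and 1753 in controls. Of 9 stem and progenitor markers, 2 fell (Gata2 among them), of 10 mast cell, basophil and eosinophil markers 2 fell, and of 2 tested T and NK cell markers 1 fell. In selected bulk marrow, more or fewer cells of a type and more or less RNA per cell cannot be told apart, and the part of these cell types in the granule gene values was not tested. In the combined group the summed erythroid level was 235 and 729 FPKM.

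**Figure D4:**
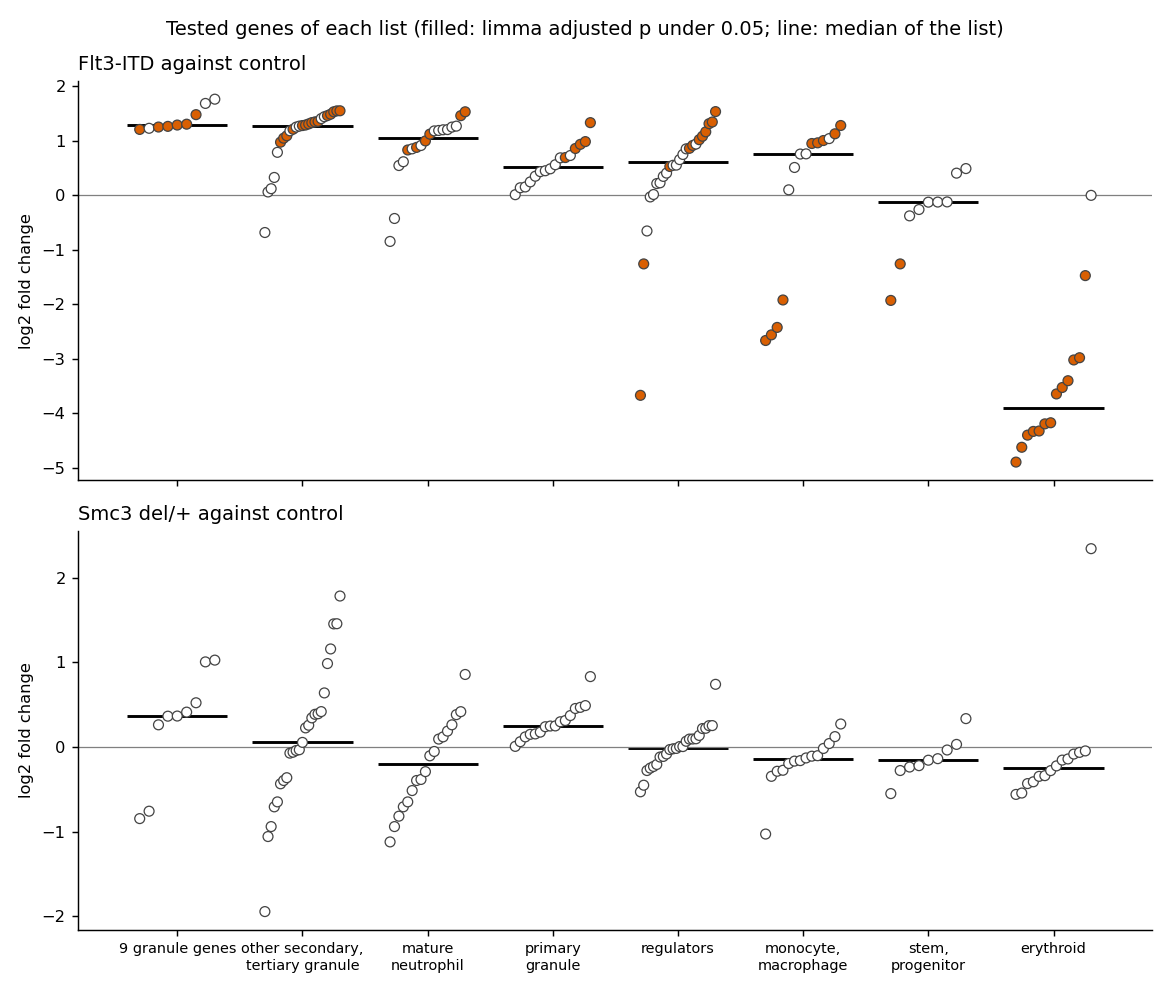
Log2 fold change of each tested gene (vertical axis) in 8 gene lists (horizontal axis), for Flt3-ITD against control above and Smc3 del/+ against control below, with filled points for an adjusted p under 0.05 and a line at the median. In Flt3-ITD the 2 granule lists and the mature neutrophil markers have medians of 1.29, 1.28 and 1.06 and the erythroid markers one of -3.91, and in Smc3 del/+ no point is filled; the highest erythroid point there is Hbb-b1, listed at 25.1 FPKM in 1 library.

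In Smc3 del/+ against control no gene of these lists passed. The medians were 0.056 for the 25 other granule genes, 0.25 for the 16 genes listed with the primary granules and -0.20 for the 18 mature neutrophil markers. The median of the 9 members was 0.37. The other granule genes of smallest p were Chit1 (1.79, limma adjusted p = 0.0555) and Orm1 (1.16, adjusted p = 0.175), both positive like Chi3l3 and Chi3l4. Several genes, chosen after their values were seen, had both deletion libraries below both controls, as Mmp8 and Mmp9 did. This held for 23.2% of all tested genes. Retnlg was at 58.5 and 52.1 FPKM in Smc3 del/+, against 137 and 108 in controls, and Mmp25, a membrane metalloproteinase, at 11.7 and 9.42, against 18.6 and 23.9. Ceacam10, a neighbour of Cd177 on chromosome 7, was at 2.08 and 1.73 FPKM in Smc3 del/+, against 10.7 and 9.58 in controls. Combined replicate 2 was also low for Retnlg (66.1 FPKM, against 387 in combined replicate 1) and Mmp25 (10.1, against 40.9). Other genes of the same lists went the other way in Smc3 del/+, such as Trem3 (109.7 and 110.1 FPKM, against 64.0 and 56.6 in controls). Cybb did too (556 and 487, against 398 and 420.3). Of the tested genes, 13 of 25 other granule genes and 7 of 18 mature neutrophil markers had a positive log2 fold change there.

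Camp, Ngp and Ltf lie in this order on 1 stretch of chromosome 9, with 31 protein-coding genes from Camp to Ltf in GRCm38.p6. Of the 28 that are no members, 13 were tested, and in Flt3-ITD against control 1 rose (Map4, 1.10) and 1 fell (Prss50, -2.31), with a median log2 fold change of 0.19. The direct neighbours of Camp (Nme6 and Cdc25a) and of Ngp (Ptpn23 and Klhl18) did not pass, at -0.46, 0.17, 0.39 and 0.50. Both neighbours of Ltf, Rtp3 and Ccrl2, were under the minimum level. Of the tested neighbours of the other members that are not members themselves, 3 rose, beside 8.51% of all tested genes. They were 1110008P14Rik beside Lcn2 (1.04, limma adjusted p = 0.0208), Dennd2d beside Chi3l4 (0.68, adjusted p = 0.0368) and Ceacam10 beside Cd177 (1.33, adjusted p = 0.0241). Ceacam10 is also on the list of other granule genes. The rest did not pass: Ptges2 beside Lcn2 (-0.094), Zfp335 beside Mmp9 (0.19) and Gm4763 beside Cd177 (1.15).

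**Figure D5:**
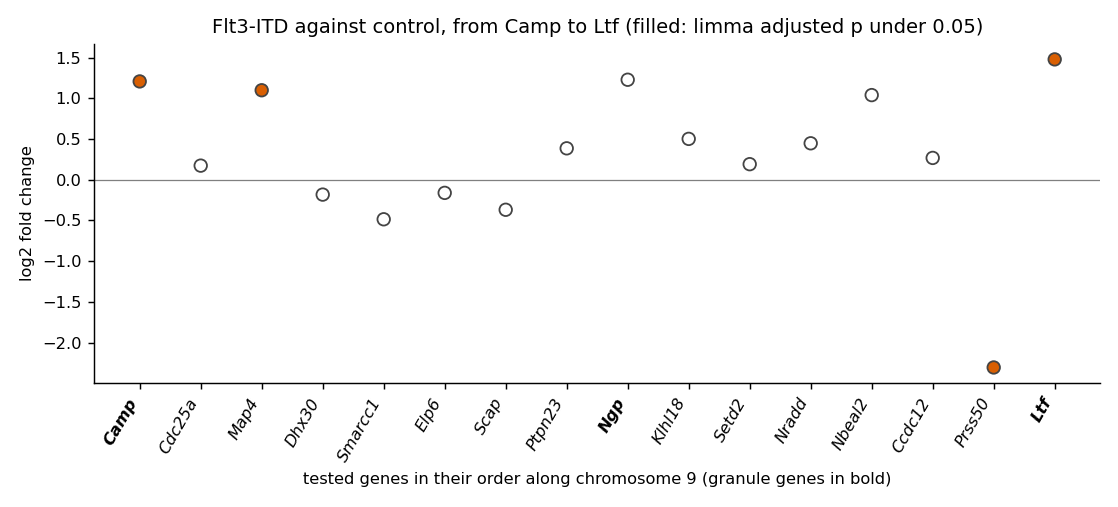
Log2 fold change in Flt3-ITD against control (vertical axis) of the 16 tested genes from Camp to Ltf in their order along chromosome 9 (horizontal axis), with filled points for an adjusted p under 0.05 and granule genes in bold. Camp (1.21), Ngp (1.23) and Ltf (1.48) stand among neighbours with a median of 0.19, and Map4 (1.10) and Nbeal2 (1.04) are the closest to them in value.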

How the data were processed

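Per the file headers and the submitters' processing notes, the authors deposited FPKM values in 2 tables, each with 23293 mouse genes and 92 ERCC spike-in RNAs over the 8 libraries. The notes name Cufflinks 2.0.0, TopHat and the mm9 build, and the labels name a directional kit; neither the annotation nor the strand setting is given in the sources used here. Main results came from the unscaled table, and the table the authors normalized was an alternative. No columns were left without a sample.

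The test was limma 3.58.1 (R 4.3.3, variance trend) on log2(FPKM + 1), for 10854 genes (mean at or above 1 FPKM), with Benjamini-Hochberg adjustment and a threshold of 0.05. Single-group comparisons and the interaction came from 4 group means (4 residual degrees of freedom), averaged effects from an additive model (5). The pseudocount understates changes of low genes. Replicates are individual mice. Alternatives were another pseudocount, 2 other filters, the normalized table, 2 scalings, fits of 2 groups alone, no variance trend, a replicate block and leaving out each library.

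Members and lists were chosen with earlier results of these data known. All members are named; of each list, up to 4 genes past the threshold with the smallest p, or up to 2 where none passed; Cebpe, Cebpa, Gfi1, Mpo, Elane, Retnlg, Mmp25, Pax5, Prg2 and B2m were added after their values were seen, and lists of other cell types are given mainly as counts; for likeness, the 10 highest and 5 lowest. Promoters are from RefSeq (GRCm38.p6) and were searched and aligned with Biopython 1.88 in Python 3.11.15. The Chi3l3 and Chi3l4 transcripts that were aligned are from GENCODE. A few genes of the lists are not reported here. Promoters are of another build than the deposited values and were joined by gene name.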

Additional observations from a re-analysis of the deposited data

Results flagged for a closer look

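Camp, Mmp8 and Mmp9 each had 1 library far from the other 3 among the 4 libraries with the Smc3 deletion. The gap to the nearest library took up 0.960 of the whole range for Camp, where combined replicate 2 was at 8252 FPKM and the other 3 at 5036 to 5165. It took up 0.915 of the range for Mmp8 and 0.929 for Mmp9, where combined replicate 1 was the high one (702 and 284 FPKM, against at most 137 and 49.1 in the other 3). Among the 4 carriers of Flt3-ITD, Chi3l3 in combined replicate 2 (4896 FPKM) stood above the rest, with a gap of 0.878 of the range. Chance alone marks about 1 in 20 groups of 4 like libraries, and these groups each hold 2 genotypes. All 9 members were searched in the groups with and without each allele, so some could be marked by chance. Mmp8 and Mmp9 moved together over the libraries, so their marks are not separate. Combined replicate 2 also listed the most genes at 0 (11076), and the part of that in these values was not tested.

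Ltf had opposite directions in the 2 comparisons labelled for the Smc3 deletion, which also differ in sex. The female Xist pattern is in control in 1 and in the combined group in the other, so sex and genotype cannot be told apart. Both combined libraries were below both Flt3-ITD libraries, as for 16.8% of all tested genes. Both Smc3 del/+ libraries were above both controls, as for 24.2%. The interaction was -0.79 on the log2 scale and did not pass (limma adjusted p = 0.567). With spike-in scaling and in the normalized table the difference between Smc3 del/+ and control was just below 0.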

How the results depend on the processing

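The values limited most are those that rest on 1 library of the combined pair or on 2 libraries a group. Counts of called members, and of called genes beside them, were as follows; the causes of the shifts were not tested. Leaving out 1 library at a time gave 1 to 9 members and 243 to 4235 genes for Flt3-ITD against control (6 and 1955 with all libraries), 0 to 1 and 1 to 12 for Smc3 del/+ against control (0 and 1), 0 to 4 and 3 to 3248 for combined against Flt3-ITD (0 and 31), 0 to 6 and 7 to 2724 for combined against Smc3 del/+ (0 and 591), 1 to 7 and 83 to 3427 for combined against control (4 and 1279), 0 to 8 and 1208 to 4703 for the averaged Flt3-ITD effect (7 and 2581), 0 members and 0 to 1 genes for the averaged deletion, and 0 to 5 and 4 to 2036 for the interaction (0 and 4). A group with a library left out has 1 mouse, which is assumed to vary like the other groups.

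Without a filter on low values, Flt3-ITD against control had 3 members beside 1633 genes (10.1% of 16161). The averaged Flt3-ITD effect had 3 members beside 2308 genes (14.3%), and combined against control 1 beside 1182 (7.31%). Genes called in that setting were 3 for Smc3 del/+ against control and 9 for combined against Flt3-ITD. They were 385 for combined against Smc3 del/+ and 2 for the interaction. With spike-in scaling, Flt3-ITD against control had 3 members and 3466 genes, the averaged effect 4 and 4369, and combined against control 2 and 4846, while genes called were 15 for Smc3 del/+ against control, 913 for combined against Smc3 del/+, 2 for the averaged deletion and 30 for the interaction. In the normalized table, genes called were 4783 for Flt3-ITD against control (107 higher and 4676 lower, against 924 and 1031), 12 for Smc3 del/+ against control, 1304 for combined against Smc3 del/+, 5916 for combined against control (121 higher and 5795 lower, against 587 and 692), 5012 for the averaged Flt3-ITD effect, 3 for the averaged deletion and 19 for the interaction, and members called were 2 for combined against control and 4 for the averaged effect. The median of all genes in Flt3-ITD against control was -0.58 there. With only the 2 groups compared in the fit, Smc3 del/+ against control had 2 members and 22 genes, Flt3-ITD against control 3603 genes, combined against control 0 members and 41 genes, and both other comparisons of the combined group 2 genes each. A pseudocount of 0.1 gave 3 genes for Smc3 del/+ against control and 5 for combined against Flt3-ITD. Without the variance trend, Smc3 del/+ against control had 3 genes and the interaction 7. A minimum mean of 5 FPKM gave 17 genes for combined against Flt3-ITD, and 75th percentile scaling 3 for Smc3 del/+ against control.

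Directions turned round for these values, none of which had passed. With spike-in scaling, Smc3 del/+ against control was -0.11 for Ltf, -0.0069 for Lcn2 and -0.0039 for Cd177, combined against Flt3-ITD -0.064 for Chi3l4, combined against Smc3 del/+ -0.0060 for Camp, the averaged deletion -0.18 for Camp, -0.17 for Ngp and -0.14 for Lcn2, and the interaction 0.16 for Mmp8 and 0.0034 for Mmp9. In the normalized table, these were -0.024 for Ltf, -0.066 for Chi3l4, -0.12, -0.089 and -0.075 for Camp, Ngp and Lcn2, and 0.11 for Mmp8. Leaving out 1 library, combined against Flt3-ITD ranged from -0.50 to 0.068 for Ngp, -0.34 to 0.13 for Lcn2, -2.07 to 0.28 for Mmp8 and -2.23 to 0.30 for Mmp9. Combined against control ranged from -0.39 to 1.97 for Mmp8 and -0.47 to 2.07 for Mmp9, and combined against Smc3 del/+ from -0.027 to 0.68 for Camp. The averaged deletion ranged from -0.023 to 0.31 for Camp, -0.22 to 0.072 for Ltf and -0.12 to 0.18 for Cd177, and the interaction from -1.23 to 1.13 for Mmp8 and -1.47 to 1.06 for Mmp9.

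Same-numbered replicates shared only a number: their deviations correlated at -0.11 to 0.023 across genes. With the replicate block, Flt3-ITD against control had 5 members beside 1714 genes (15.8%), and combined against control 3 beside 1012 (9.32%). Combined against Flt3-ITD had 3 genes and the averaged deletion 1 gene, and no other count moved by over 1.5 times. Summing Chi3l3 and Chi3l4 gave 1.26 for Flt3-ITD against control and 1.01 for Smc3 del/+ against control, on the same side of the threshold as each gene alone.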

Other observations

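Listed genes of mast cells, basophils and eosinophils had their highest summed level in the combined group, at 594 and 305 FPKM over 12 genes, against 190.5 and 163 in Flt3-ITD, 259 and 285 in Smc3 del/+, and 149 and 155 in controls. The eosinophil granule gene Prg2 made up much of it, at 228 and 143 FPKM in combined libraries, 48.004 and 39.3 in Flt3-ITD, 54.6 and 75.5 in Smc3 del/+, and 25.3 and 27.3 in controls. Cpa3, a mast cell protease gene, lay the other way, at 11.6 and 24.5 FPKM in combined libraries, 13.3 and 16.3 in Flt3-ITD, 56.6 and 57.6 in Smc3 del/+, and 32.2 and 32.3 in controls. Of 10 tested, 3 rose in the combined group against control and none fell, and 5 had a positive log2 fold change.

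Genes listed with the primary granules summed to 7709 and 8517 FPKM in combined libraries, 8734 and 9321 in Flt3-ITD, 7212 and 7764 in Smc3 del/+, and 6205 and 6222 in controls. This range was narrower than that of the 9 members, which summed to 28134 to 80669 FPKM over the same libraries. B2m, which secondary granules also hold, did not pass in any comparison with control.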
